A study of Mus musculus with 12 samples.

Results

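Saa3, Lcn2, Acod1, Marco, Fpr2, Cd69 and Cd83 are genes of activated myeloid cells that were followed here in MEFs, the fibroblasts cultured from mouse embryos. They are 7 of the 18193 genes with a probe set of their own on the arrays, and they are read by 8 of the 45101 probe sets, 2 of them for Marco. They were chosen by their measured values, for a large rise with growth hormone in wild-type MEFs. Their values on the wild-type arrays are therefore given as a description, with no test. The tests concern comparisons that the rule did not use. They come from a fit of all arrays, so the wild-type arrays enter the estimate of spread. All cells were of strain C57BL/6. Wild-type MEFs (WT), Stat5-null MEFs (KO) and Stat5-null MEFs infected with a retroviral vector for STAT5A (S5) were each analysed without stimulation or after 120 minutes of growth hormone, with 2 arrays for each of the 6 groups. KO and S5 cells share the Stat5 deletion, and no label names a KO group with an empty vector or a vehicle control. Per the design text, the 2 arrays of each group are biological duplicates. The labels do not say how many embryos or cell clones stand behind a genotype, so genotype and cell preparation cannot be told apart.

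The 7 genes are known from immune cells that switch from rest to alarm. Microbial products and the cytokines interleukin 1 and tumour necrosis factor activate NF-kB and C/EBP transcription factors, which switch on secreted defence proteins, receptors and metabolic enzymes within hours. Saa3 encodes an acute-phase serum amyloid protein made outside the liver, and Lcn2 encodes lipocalin 2, which withholds iron from bacteria by binding their siderophores. Acod1 encodes the enzyme that makes itaconate from a citric acid cycle intermediate. Marco encodes a scavenger receptor for bacteria and particles, and Fpr2 a receptor for formyl peptides and other chemoattractants. Cd69 and Cd83 encode surface proteins that appear on leukocytes upon activation. Growth hormone acts through its receptor and the kinase JAK2 on STAT5A and STAT5B, and Cish and Socs2 are direct STAT5 targets.

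The members share a large rise in treated WT cells because they were chosen for it. The 250 bases before the transcription start were compared for the 5 members with an entry in the promoter table (RefSeq, build GRCm38.p6). Of these, 4 are printed, read 5′ to 3′ toward the start, with the letters that match a searched motif in capitals. Both strands were searched for 7 motifs, of which the NF-kB consensus and an interferon response element are given by name alone. The C/EBP motif was searched as TTGCNNAA and the AP-1 motif as TGANTCA. The STAT motif was searched as TTCNNNGAA. The letters of the core bound by the myeloid transcription factor PU.1 were GAGGAA. For the TATA box, the general start element of many regulated promoters, they were TATAAA. The Saa3 window (chr7:46715677-46715926, minus strand) and the Lcn2 window (chr2:32387740-32387989, minus strand) are shown for their C/EBP letters, the Acod1 window (chr14:103046762-103047011, plus strand) for its TATA letters close to the start, and the Fpr2 window (chr17:17887574-17887823, plus strand) for its STAT letters.
Saa3: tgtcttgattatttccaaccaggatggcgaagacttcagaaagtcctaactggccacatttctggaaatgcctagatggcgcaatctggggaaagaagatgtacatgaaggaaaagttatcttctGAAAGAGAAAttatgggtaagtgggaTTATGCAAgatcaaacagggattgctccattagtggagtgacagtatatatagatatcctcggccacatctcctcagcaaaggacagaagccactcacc
Lcn2: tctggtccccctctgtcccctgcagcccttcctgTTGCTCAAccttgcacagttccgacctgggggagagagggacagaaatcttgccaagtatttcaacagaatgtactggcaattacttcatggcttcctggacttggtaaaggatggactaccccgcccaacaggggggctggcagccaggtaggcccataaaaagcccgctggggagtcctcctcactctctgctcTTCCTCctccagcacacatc
Acod1: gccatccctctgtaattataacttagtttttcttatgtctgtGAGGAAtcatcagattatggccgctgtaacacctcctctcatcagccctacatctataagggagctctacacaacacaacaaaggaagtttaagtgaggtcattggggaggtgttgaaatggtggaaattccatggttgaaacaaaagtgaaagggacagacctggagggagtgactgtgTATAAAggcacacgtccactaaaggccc
Fpr2: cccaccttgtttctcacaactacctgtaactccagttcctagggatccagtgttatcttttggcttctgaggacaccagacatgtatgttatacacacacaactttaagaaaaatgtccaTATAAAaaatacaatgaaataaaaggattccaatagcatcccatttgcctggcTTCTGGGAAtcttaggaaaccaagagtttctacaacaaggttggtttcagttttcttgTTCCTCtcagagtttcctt

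The C/EBP letters lay 99 to 92 bases before the start in Saa3 (on the opposite strand) and 216 to 209 bases before it in Lcn2, so 2 of 5 members held them, against 9.56 percent of 32851 mouse promoters of the same length. The PU.1 core was present in 4 of the 5 windows (all but Saa3, with Marco at 146 to 141 bases before the start), against 23.3 percent of all promoters. STAT letters stood in the Fpr2 window only, at bases 77 to 69 before the start (7.02 percent of promoters). TATA letters stood in Acod1 at bases 28 to 23 and in Fpr2 at bases 130 to 125 (12.4 percent). Saa3 also held the interferon response letters at bases 125 to 116 (2.98 percent). The NF-kB consensus (3.9 percent) and the AP-1 letters (6.75 percent) matched in none of the 5 windows. No 2 motifs overlapped in these windows. A match describes letters and is not evidence of a bound site.

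The deposited values lay between 0.99 and 15.95 on a log2 scale, with array medians of 2.86 to 3.02. Between 44.9 and 45.8 percent of probe sets on an array stood at 4 or above. Values below 4 form a crowded low mode in which differences are compressed, so 4 was taken as a lower bound of clear signal. The variant of RMA behind these low values is not settled. Folds against a group in the low mode use 4 as its level and are lower limits, written "at least". The mean of 10 fibroblast markers was 13.05 to 13.19 on WT arrays, 12.66 to 12.75 in KO and 10.87 to 11.38 in S5. The collagens Col1a1, Col1a2 and Col3a1 stood high on all 12 arrays, but the surface antigen Thy1 was at 14.07 to 14.39 in WT and KO and at most 5.09 in S5, and the proteoglycan gene Lum was at 6.81 to 7.56 in WT and at most 4.18 elsewhere. The number of arrays limits the precision, and p-values measure only the spread between these arrays.

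The acute-phase and iron-withholding members were in the low mode on untreated WT arrays and high on treated ones. In WT, Saa3 read 3.10 and 2.93 without hormone and 12.20 and 12.26 with it. On KO arrays it read 2.46 and 2.52 untreated and 2.83 and 3.66 treated, and on S5 arrays 2.41 and 2.43 untreated and 2.40 and 2.46 treated. The treated WT arrays stood at least 300-fold above the untreated ones, a floored difference of 8.23, and the highest other array, a treated KO array at 3.66, was also below the bound. Lcn2 read 2.26 and 2.25 on untreated WT arrays and 6.51 and 6.24 on treated ones, at least 5.19-fold higher. All 8 KO and S5 arrays lay between 2.16 and 2.23 for Lcn2, and these values overlapped between treated and untreated cells.

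Acod1, the itaconate enzyme, had a different starting point. It read 2.77 on 1 untreated WT array and 7.16 on the other, and 13.0 and 12.76 on the treated WT arrays. The treated mean lay 5.72 log2 units, or 52.6-fold, above the untreated array with signal, and at least 470-fold above the untreated array in the low mode. KO arrays read 2.22 and 2.26 untreated and 3.46 and 2.65 treated, and S5 arrays 2.17 to 2.22. Thus the treated arrays lay above the untreated ones in WT and in KO, but in KO every value was below 4.

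The receptors Marco and Fpr2 followed the pattern of Saa3 and Lcn2. Marco read 1.54 and 1.52 on untreated and 8.48 and 8.29 on treated WT arrays, and 1.5 to 1.54 on the KO and S5 arrays. Its other probe set read 2.22 and 2.28 untreated and 2.92 and 4.05 treated in WT, and 2.14 to 2.22 on KO and S5 arrays. That probe set reached the bound on 1 array only, so it gives no measurable fold. With the mean of both probe sets, the WT difference of Marco was 4.05 instead of 6.85, both on the values as deposited. Fpr2 read 2.43 and 2.71 on untreated and 9.57 and 9.39 on treated WT arrays, with 2.31 to 2.42 on all KO and S5 arrays. The treated WT arrays stood at least 20.9-fold above the untreated ones for Marco and at least 44.6-fold for Fpr2.

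The surface activation markers Cd69 and Cd83 both had signal on at least 1 untreated WT array, as Acod1 did. Cd69 read 4.46 and 4.81 on untreated and 10.90 and 10.64 on treated WT arrays, a difference of 6.31 and 5.96 from either untreated array. It was the only member above the bound on both untreated WT arrays, and it read 2.69 to 2.89 on KO and S5 arrays. Cd83 read 2.65 and 6.09 on untreated and 10.59 and 10.35 on treated WT arrays. Its treated mean lay 4.38 log2 units, or 20.8-fold, above the untreated array with signal. On KO arrays Cd83 read 2.18 and 2.22 untreated and 2.23 and 2.46 treated, and on S5 arrays 2.15 to 2.17.

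**Figure D1:**
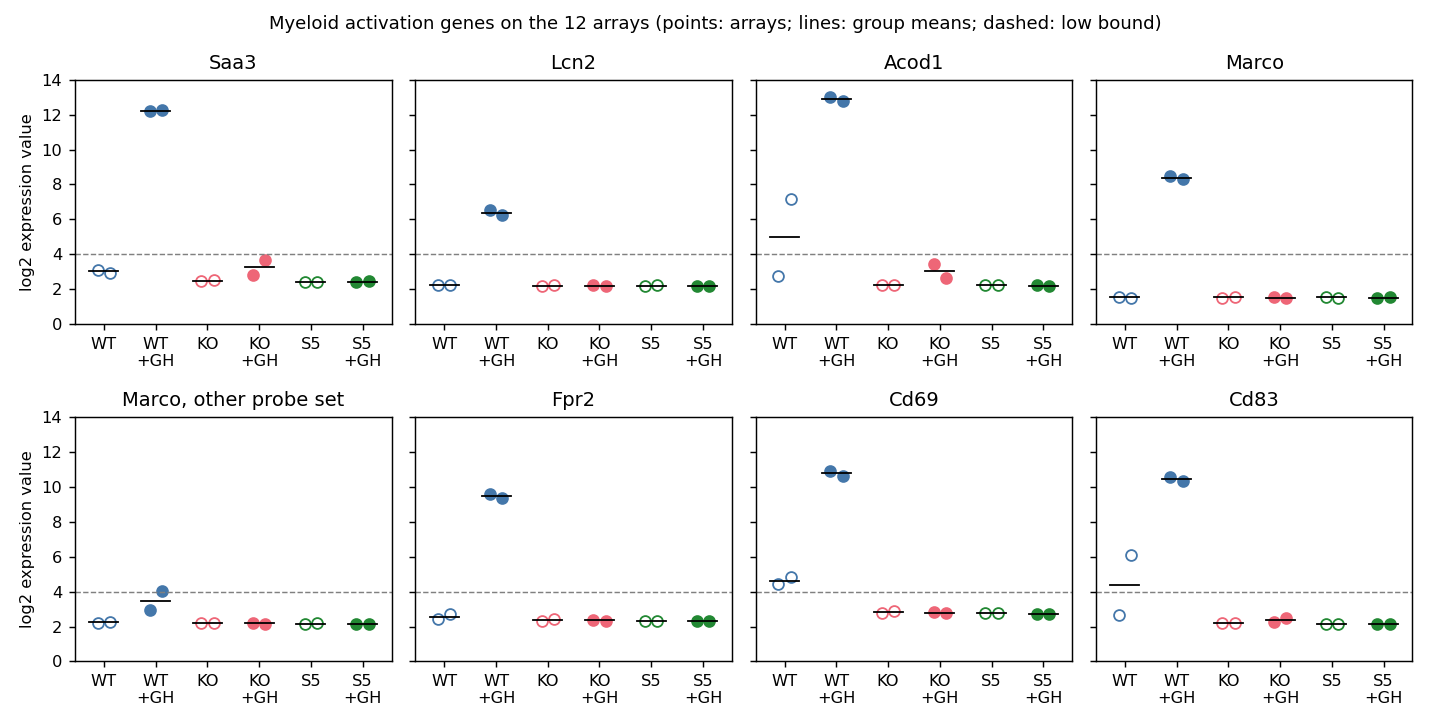
Log2 expression value (vertical axis) of the 8 probe sets in the 6 groups; points are arrays (open untreated, filled growth hormone, replicate 1 left), lines are group means of 2 arrays and the dashed line is the bound of 4. The treated WT arrays stand above all other arrays in every panel, Acod1 and Cd83 differ between the 2 untreated WT arrays, and no KO or S5 array reaches the bound.

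In each member treated WT came first in the order of the groups. Untreated WT had a resolved place for Cd69, where both its arrays stood above the bound and above every KO and S5 array. The KO and S5 groups lay below the bound for every member and have no readable order among themselves. For Acod1 and Cd83 untreated WT came next by its mean, but 1 of its arrays was in the low mode, and for Acod1 that array (2.77) lay under a treated KO array (3.46). For Saa3 the treated KO arrays (2.83 and 3.66) spanned the untreated WT arrays (3.10 and 2.93). For Saa3, Lcn2, Marco and Fpr2 untreated WT lay below the bound as well. In WT both treated arrays lay above both untreated arrays for 7 of 7 members, beside 18 percent of all genes. The rule used that contrast, and the count is its consequence.

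The members had no measurable signal in the cells without endogenous Stat5 genes, with or without the STAT5A vector. All 7 lay below the bound on all 8 KO and S5 arrays. The same was true of 37.4 percent of all genes, of 3.05 percent of the 11132 genes at 4 or above on at least 2 WT arrays, and of 20.5 percent of the 557 genes called higher with growth hormone in WT. These shares are the background of the count and were not tested. In bulk RNA, fewer cells of a type and less RNA per cell cannot be told apart.

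None of the 7 members was called with growth hormone in KO MEFs by limma's test over all genes (0 of 7). Among all genes 0.308 percent were called in either direction and 0.225 percent higher. Beside such shares, and with every KO value below the bound, a count of 0 of 7 says little about the members. Of the members 1, Saa3, had an unadjusted p under 0.05 in KO. Its difference was 0.75 (SE 0.23, 95 percent interval 0.22 to 1.29, unadjusted p = 0.0121, adjusted p = 0.294), all below the bound. Without replicate 1 of the treated KO arrays the difference was 1.17 and passed (adjusted p = 0.00281), since the remaining array read 3.66. Both treated KO arrays lay above both untreated ones for 3 of 7 members (Saa3, Acod1 and Cd83), beside 13.4 percent of all genes. Acod1 had a difference of 0.82 (SE 1.18, adjusted p = 0.938) and Cd83 of 0.15 (SE 0.91, adjusted p = 0.991). Those SEs come from 1 fit of all arrays, which the gap between the untreated WT arrays enters. In a fit of the KO arrays alone their adjusted p was 0.706 and 0.992. Lcn2, Marco, Fpr2 and Cd69 had differences of -0.05 to 0 (adjusted p from 0.956 to 1).

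In S5 MEFs the differences of the 7 members ran from -0.07 to 0.01 (adjusted p from 0.882 to 1 by limma). None was called, where 7.88 percent of genes were called in either direction and 3.63 percent higher, and none had an unadjusted p under 0.05. For 7 genes a count of 0 is near these shares. The 95 percent intervals were narrow for Marco (-0.14 to 0.13), Lcn2 (-0.20 to 0.16) and Fpr2 (-0.24 to 0.20). All S5 values of the members lay below the bound, where differences are compressed. A narrow interval there describes the low mode and sets no limit on a change in RNA. The intervals were wide for Acod1 (-2.79 to 2.75) and Cd83 (-2.14 to 2.15). As in KO, the gap between the untreated WT arrays enters these wide intervals. The S5 arrays themselves read 2.17 to 2.22 for Acod1 and 2.15 to 2.17 for Cd83. Both treated S5 arrays lay above both untreated ones for 0 of 7 members, beside 19.6 percent of all genes. The same S5 cells carried the hormone response of STAT5. Cish rose at least 38.1-fold (adjusted p = 4.29e-06) and Socs2 rose from 8.88 and 8.96 to 13.22 and 13.64 (log2 difference 4.51, adjusted p = 4.29e-06).

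No difference between the responses of the members in S5 and KO cells could be read, with all their values below the bound. For S5 response minus KO response 0 of 7 passed limma's test, where 1.13 percent of genes did in either direction, and none had an unadjusted p under 0.05. The differences ran from -0.84 for Acod1 to 0 (adjusted p from 0.523 to 1). Saa3 stood at -0.74 (95 percent interval -1.5 to 0.01), and at -1.16 (adjusted p = 0.00594) without replicate 1 of the treated KO arrays. Without hormone, S5 and KO cells differed by -0.07 to 0.01 in the members (adjusted p from 0.76 to 0.996, 0 of 7 called and none with an unadjusted p under 0.05, where 27.4 percent of genes were called). A p that misses the threshold does not show equal levels, and in the low mode these values say little below the bound.

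The members other than Cd69 fell into 2 patterns on the 2 untreated WT arrays. Saa3, Lcn2, Marco and Fpr2 were in the low mode on both untreated arrays. Acod1 and Cd83 were higher on untreated replicate 2 than on replicate 1, at least 8.93-fold and at least 4.26-fold with the low array set to 4. Cd69 had neither pattern: it stood above the bound on both untreated arrays, which differed by 0.35. Over the 12 arrays Acod1 and Cd83 correlated with r = 0.997, and Lcn2 and Marco with r = 1 after rounding, while Acod1 and Marco correlated with r = 0.941. These coefficients describe the 12 arrays, are dominated by the 2 treated WT arrays and carry no test.

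Macrophage and leukocyte markers were, as a list, higher in WT than in KO and S5 cells, as the members were in treated WT cells. They also differed between the untreated WT arrays, as Acod1 and Cd83 did, while the other 5 members differed there by at most 0.35. The mean log2 value of 16 such markers was 7.69 and 9.34 on untreated WT replicates 1 and 2 and 9.16 and 9.02 on the treated WT arrays. It was 3.71 to 4.02 on the KO arrays and 3.02 to 3.31 on the S5 arrays. On WT arrays 12 to 14 of the 16 were at or above the bound, against 5 or 6 on KO and 3 on S5 arrays. The leukocyte antigen Ptprc, the macrophage antigen Adgre1, the Fc receptors Fcgr1 and Fcgr3, the adaptors Tyrobp and Fcer1g, and Aif1, Cx3cr1, Spi1 and Itgam lay below the bound on all KO and S5 arrays. Itgam, a defining integrin of myeloid cells, was below it on the WT arrays as well (2.32 to 2.42). Spi1 and Cx3cr1 were also mostly below it in WT. Spi1 read 2.03 and 2 on untreated and 4.54 and 2.98 on treated WT arrays. Cx3cr1 read 2.42 and 6.23 untreated and 3.88 and 3.45 treated. The markers above the bound in KO cells included Csf1r (up to 8.60), Lyz2 (up to 7.47) and Cd53 (up to 6.44). Mertk, a receptor for dying cells, went against the list, with 5.28 to 6.23 on WT arrays and up to 7.05 in KO and 6.47 in S5. The part of these cells in the members' rise was not tested.

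**Figure D2:**
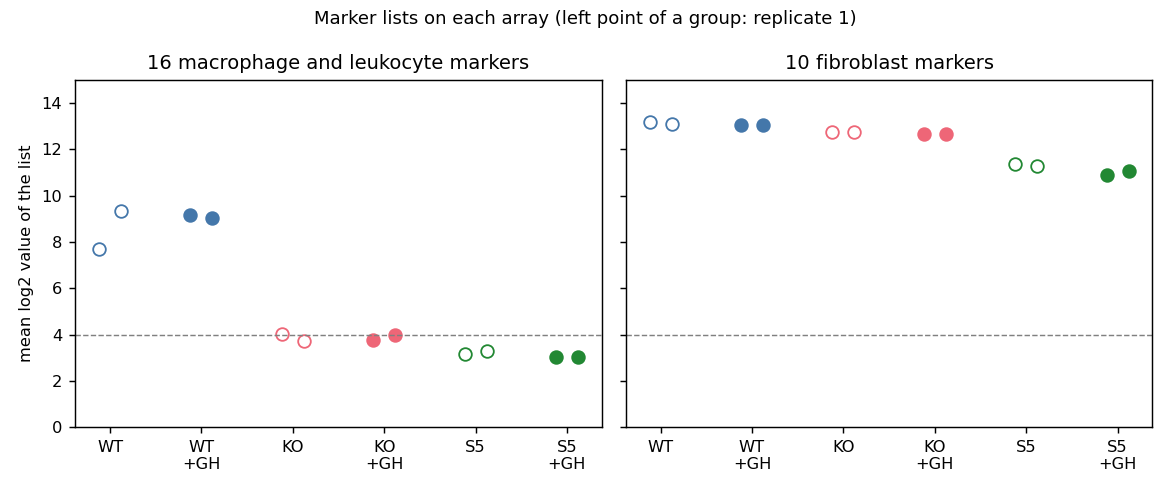
Mean log2 value of 16 macrophage and leukocyte markers (left) and 10 fibroblast markers (right) on each array (points; open untreated, filled growth hormone, replicate 1 on the left of each pair); the dashed line is the bound of 4. The WT arrays carry the macrophage markers at 7.69 to 9.34, and the KO and S5 arrays stay at or below 4.02.

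All 14 of the markers at or above the bound on an untreated WT array were higher on replicate 2, by a median of 1.74, while 44.8 percent of the 11165 genes at or above it on such an array were. Acod1 and Cd83 were higher on that same array. The neutrophil and lymphoid lists gave no such signal: 10 of 10 measured neutrophil and 6 of 6 lymphoid markers lay below the bound on every array. So did 5 of 6 dendritic, 4 of 5 mast cell, 4 of 5 endothelial and 4 of 5 epithelial markers. The exceptions are named after their values were seen. The dendritic marker Zbtb46 read 7.60 and 7.88 on untreated and 9.22 and 8.84 on treated WT arrays. It reached at most 7.04 in KO and 6.63 in S5. Ms4a2 reached 7.64 and Krt18 8.16 in KO, and Tek 9.42 in S5.

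**Figure D3:**
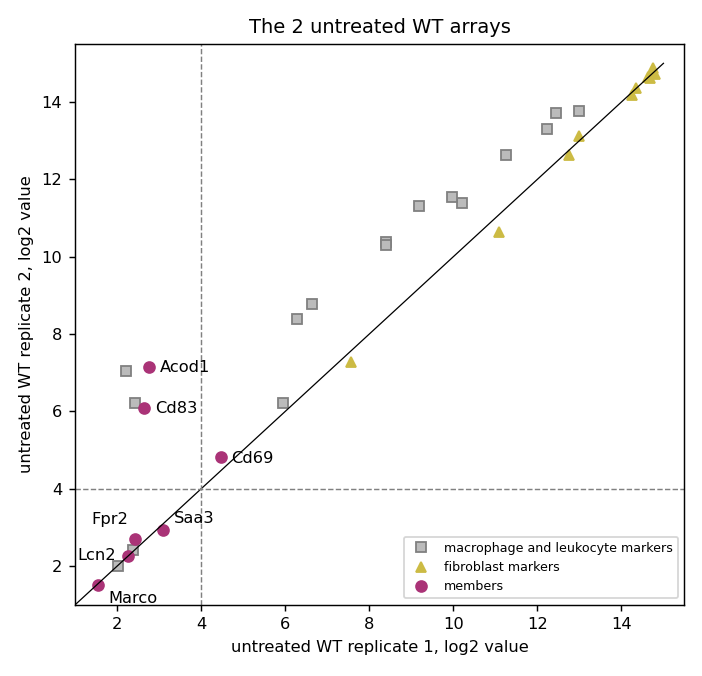
Log2 value on untreated WT replicate 1 (horizontal) against replicate 2 (vertical) for the 7 members (circles), 16 macrophage and leukocyte markers (squares) and 10 fibroblast markers (triangles); the solid line marks equal values and the dashed lines the bound of 4. The macrophage markers above the bound lie above the line together with Acod1 and Cd83, the fibroblast markers lie near it, and Saa3, Lcn2, Marco and Fpr2 sit in the low corner.

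The cytokines and transcription factors known to induce such genes rose in WT MEFs together with them. Of 19 measured inducers, a list of cytokines, their receptors, toll-like receptors and transcription factors, 17 were called higher and 1 lower in WT, where 3.06 and 2.94 percent of all genes were. This list and the others were chosen with earlier results of these data known. Their WT counts and WT adjusted p-values are therefore descriptions and no independent support. Il1b read 2.35 and 2.49 untreated and 11.81 and 11.76 treated (at least 221-fold, adjusted p = 1.28e-10), and the growth factor Csf2 rose by a floored difference of 5.74. The C/EBP gene Cebpd, whose protein binds acute-phase promoters, rose by 1.54 (adjusted p = 0.000214). The related Cebpb rose by 1.02 (adjusted p = 0.0269), a call lost in a fit of the WT arrays alone (0.105), without untreated WT replicate 2 (0.117), without either treated WT array (0.106 and 0.0984) and without either untreated S5 array (0.0544). The 1 gene called lower, Tlr4, is named after its values were seen. This receptor gene for bacterial endotoxin fell by 1.29 (adjusted p = 0.0129), a call lost without untreated WT replicate 2 (0.0647), without treated replicate 2 (0.0734) and in the fit of the WT arrays alone (0.075). The calls of Il1a, Nfkbiz, Nfkb2, Tlr2, Cd14, Myd88 and Il1r1 were also lost in the fit of the WT arrays alone. Their adjusted p there was 0.0526 to 0.181 by limma. This set of genes was named after its values were seen. The median difference of the list was 2.69, against -0.04 over all genes.

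In KO and S5 cells the 6 cytokine genes of that list lay below the bound on every array. In KO 2 of 19 inducers were called higher. Relb, an NF-kB subunit, rose from 6.66 and 6.35 to 8.18 and 8.20 (log2 difference 1.69, adjusted p = 0.02), and the inhibitor Nfkbia rose by 0.89 (adjusted p = 0.00416). Both calls were lost in a fit of the KO arrays alone (adjusted p = 0.278 each), and that of Relb also without replicate 2 of the untreated (0.0672) or treated (0.0557) KO arrays. In S5 5 of 19 were called higher. They were Relb by 3 (adjusted p = 0.000208), Nfkbia by 0.78 (0.000755), Nfkbiz, a nuclear cofactor that Lcn2 induction is known to use, by 2.59 (0.00164), Irf1 by 2.13 (0.00164) and Nfkb2 by 1.17 (0.00957). The Nfkb2 call was lost without S5 replicate 2 (0.0606), without treated S5 replicate 1 (0.0587) and when its probe sets were averaged (0.0542). Cebpd differed by -0.17 in KO (adjusted p = 0.739) and by -0.34 in S5 (adjusted p = 0.0942; 0.0428 with each array centred on its median and 0.0171 with a replicate block), and Cebpb by -0.40 (0.606) and 0.65 (0.1). Il1b lay between 2.18 and 2.27 and Tnf between 1.89 and 2 on all KO and S5 arrays.

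Relatives of the members by function gave a mixed picture. Of 16 measured acute-phase and iron or zinc genes 4 were called higher in WT (Steap4, Lbp, Slc39a14 and Slpi), 2 in S5 (Steap4 and Slc39a14) and 0 in KO. The Lbp difference of 1.76 was mostly below the bound (adjusted p = 0.000659; 0.484 with values below 4 set to 4). The Slc39a14 calls were lost when its probe sets were averaged (adjusted p = 0.299 in WT and 0.229 in S5). Slpi, a secreted protease inhibitor, read 2.15 and 2.18 untreated and 3.63 and 4.67 treated in KO and did not pass (adjusted p = 0.0503). In WT, where it was called, Slpi read 5.65 and 5.61 untreated and 7.42 and 7.64 treated (adjusted p = 0.0104; 0.065 without replicate 2 of the treated arrays). Steap4, a metalloreductase, rose in WT from 3.16 and 3.14 to 6.09 and 5.61 (adjusted p = 0.000153) and in S5 from 2.80 and 2.82 to 5.52 and 5.45 (adjusted p = 0.000248). In KO Steap4 read 2.99 to 3.50 (adjusted p = 0.799), and its S5 response exceeded its KO response by 2.42 (adjusted p = 0.00475). With group means below 4 set to 4 this difference was 1.48. Saa1 and Saa2, the liver relatives of Saa3, lay between 2.08 and 2.25 on all 12 arrays.

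Among 13 scavenger and uptake receptors 2 were called higher in WT (Clec4e and Olr1) and 0 in KO or S5. The Olr1 call was lost in the fit of the WT arrays alone (adjusted p = 0.0923). Clec4e, a receptor for mycobacterial glycolipid, read 2.29 and 4.77 untreated and 11.40 and 11.65 treated in WT (adjusted p = 0.000703; 0.0751 in the fit of the WT arrays alone). Msr1, a scavenger receptor related to Marco and named after its values were seen, stood at 8.30 and 9.86 in untreated WT MEFs (difference 0.69, adjusted p = 0.42). Of 10 chemoattractant receptors 1 was called, Ccrl2, a chemerin-binding receptor, which read 2.13 and 2.14 untreated and 6.84 and 7.06 treated in WT (at least 7.73-fold, adjusted p = 2.58e-08) and at most 2.14 elsewhere. C5ar1, the receptor for complement fragment C5a, stood at 11.97 and 12.93 before the hormone in WT (difference 0.14, adjusted p = 0.816).

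Of 14 enzymes of itaconate, nitric oxide and redox metabolism besides Acod1, 5 were called higher in WT (Gch1, Sod2, Nfe2l2, Cybb and Ncf1), 1 in S5 (Gch1) and 0 in KO. All 5 WT calls were lost in the fit of the WT arrays alone (adjusted p from 0.0525 to 0.215). Gch1, which makes the cofactor of nitric oxide synthase, rose by 3.11 in WT (adjusted p = 0.00226; 0.0525 in the fit of the WT arrays alone) and by 1.58 in S5 (adjusted p = 0.0288; 0.121 in the fit of the S5 arrays alone, 0.0524 with values below 4 set to 4, and 0.0509 to 0.154 without either untreated S5 array, treated S5 replicate 2 or either treated WT array). Of 16 surface activation genes 4 were called higher in WT (Cd40, Icam1, Icosl and Cd44), 2 in S5 (Clec2d and Icosl) and 0 in KO. The S5 calls of Clec2d and Icosl were each lost without either untreated S5 array. That of Icosl was also lost with quantile normalization (adjusted p = 0.0512), with values below 4 set to 4 (0.0677) and in the fit of the S5 arrays alone (0.188). The WT calls of Icosl and Cd44 were lost in the fit of the WT arrays alone (adjusted p = 0.0635 and 0.0879). The Cd44 call was also lost with every probe set on its own (0.0523), with values below 4 set to 4 (0.0553) and with a replicate block (0.0619). Leaving out any WT array lost it too. Cd40, a costimulatory receptor, rose from 6.44 and 6.52 to 9.82 and 9.82 in WT (adjusted p = 2.52e-05), while it had signal in KO at 7.15 to 7.79 (difference 0.29, adjusted p = 0.611). The adhesion gene Icam1 rose by 3.02 in WT (adjusted p = 0.00149) and differed by 0.96 in KO (adjusted p = 0.292).

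Over these lists, chosen with earlier results known, 33 of 88 measured genes were called higher and 1 lower in WT, as a description. Of the 33, 12 lay below the bound on all KO and S5 arrays, as the 7 members did. The other 21 were at or above the bound on 1 or more KO or S5 arrays. Cd40 and Icam1 were among the 21, although both lay below the bound on every S5 array. In the fit of the WT arrays alone 20 of the 34 calls were lost, and 13 were kept under every alternative run. The 13 were Ccrl2, Cd40, Cebpd, Csf2, Icam1, Il1b, Il6, Irf1, Nfkbia, Rel, Relb, Steap4 and Tnf.

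**Figure D4:**
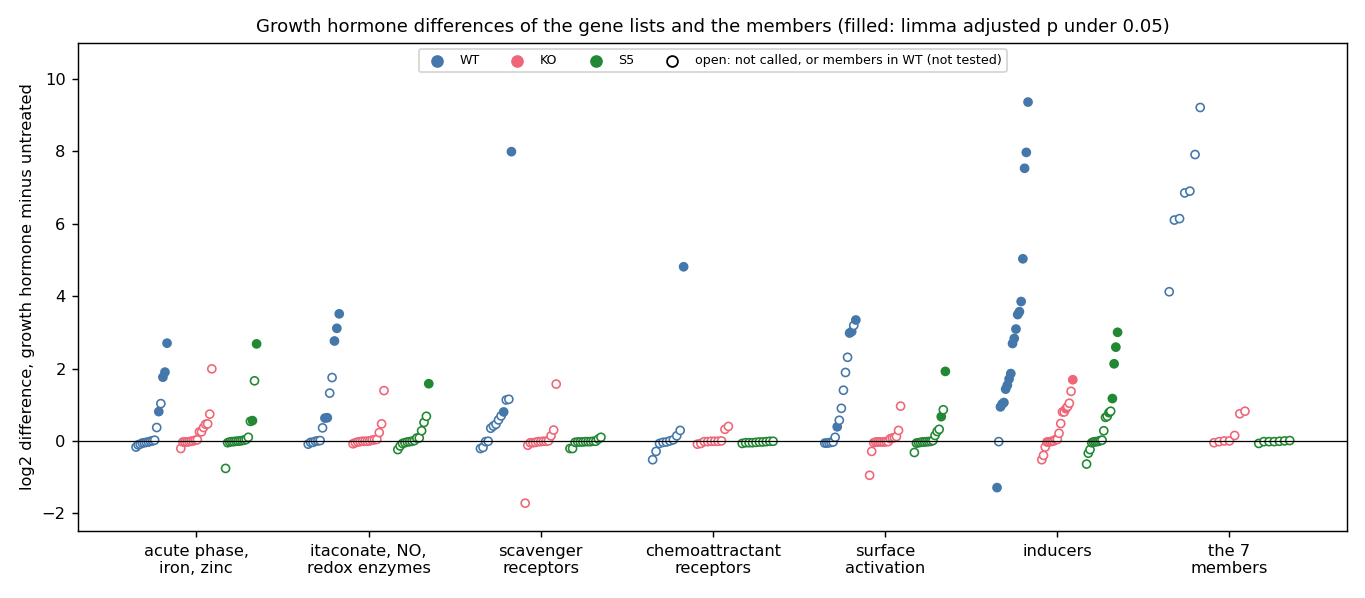
Log2 difference between growth hormone and untreated cells (vertical axis) for the genes of 6 lists and for the 7 members, by genotype (colour); filled points passed limma's test at an adjusted p under 0.05, and the members in WT are open because they were not tested. On the values as deposited, the members lie at 4.12 to 9.21 in WT, at -0.05 to 0.82 in KO and at -0.07 to 0.01 in S5.

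The genes whose pattern over the 12 arrays was most like that of the members were named by the highest Pearson r among 11125 genes. The mean pattern of the 7 members was closest to Tnf (r = 0.9985), Tmem171 (0.9975) and the chemokine gene Ccl4 (0.9971). Saa3 was closest to Il1b, Adtrp and Csf2 (0.9955 to 0.9951), and Fpr2 to Il1b, Traf1 and Cxcl9 (0.9998 to 0.9996). Lcn2 was closest to Cxcl9, Ccl22 and Csf2 (0.9999 to 0.9996), and Marco to Csf2, Adtrp and Cxcl9 (0.9999 to 0.9997). Acod1 and Cd83 shared Cybb, the NADPH oxidase subunit of phagocytes (0.9928 and 0.9966), and Pik3r5 (0.9905 and 0.9951) as closest genes, followed by Nlrp3 (0.9899) and Ebi3 (0.9938). Cybb read 2.79 and 5.21 on the untreated WT arrays, with the same array higher as for Acod1 and Cd83. Cd69 was closest to Gbp6 (0.9965), Slc2a6 (0.9949) and Tmem171 (0.9921). With the treated WT arrays far above the rest, such an r mainly says that a gene was high on those arrays.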

How the data were processed

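RNA of 12 MEF samples was hybridised to Affymetrix arrays. The authors deposited log2 expression values; GCOS and RMA are named per the submitters' processing notes, and settings are not given in the sources used here. The log2 scale was read from the values. Their low mode is lower than plain RMA usually gives and is more like GC-RMA, so the variant used, and with it what values below 4 mean, is not settled. The members and lists were chosen with earlier results of these data known.

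Probe sets were named through the supplied platform table and RefSeq symbols. Control probe sets (64), those with several genes (932) and with no gene listed (9160) were left out. The probe set with the highest mean represented each of 18193 genes. The test was limma 3.58.1 in R 4.3.3, with a mean for each of 6 groups, 6 residual and 1.2 prior degrees of freedom, two-sided, and Benjamini-Hochberg adjustment over all genes at 0.05. Fits were tested on simulated data. The members were named in full, with the 3 genes of highest r for each. Of each list up to 4 genes with the smallest adjusted p in a comparison were named, plus Il1b, Tnf, Cish, Socs2, Saa1, Saa2, Fpr1, Cebpb, Cebpd and Nfkbiz; any other is said to be chosen after its values were seen. Fpr1 was not analysed here. The alternatives were other summaries of probe sets, scalings, a floor, a filter, other fits and leaving out each array.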

Additional observations from a re-analysis of the deposited data

Results flagged for a closer look

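The growth hormone response differed between S5 and KO cells for 4 genes that served as comparison or treatment check, by a test of the difference itself (limma, S5 response minus KO response, adjusted over all genes). The difference was 6.11 for Cish (adjusted p = 4.53e-05), 3.84 for Socs2 (adjusted p = 0.000162), 2.42 for Steap4 (adjusted p = 0.00475) and -1.22 for the repressor gene Bcl6 (adjusted p = 0.011). With group means below 4 set to 4 it was 5.62 for Cish and 1.48 for Steap4. The treated arrays moved away from both untreated arrays in S5 for each of the 4. The Bcl6 call was lost when its probe sets were averaged (adjusted p = 0.255) and without the WT arrays (0.0616). None of the 7 members was among them.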

How the results depend on the processing

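Over 588 values of the members in the tested comparisons under alternatives, 586 kept their side of the threshold; the other 2 were Saa3 without replicate 1 of the treated KO arrays. Leaving out each array in turn, the members called numbered 0 to 1 for growth hormone in KO and for S5 response minus KO response, and 0 to 0 in the other tested comparisons. The counts over all genes were 1092 for growth hormone in WT (547 to 1143 leaving out each array), 56 in KO (20 to 140) and 1433 in S5 (552 to 1536). They were 205 for S5 response minus KO response (155 to 263) and 4989 for S5 minus KO untreated (3661 to 5121). With every probe set on its own, which tests more features, the counts were 113 in KO, 2812 in S5, 472 for the difference of responses and 8478 for S5 minus KO. In fits of only the groups compared, which hold fewer arrays, they were 266 in WT, 0 in KO, 532 in S5 and 114 for the difference of responses. Setting values below 4 to 4 left 33 in KO; the cause was not tested. Centring each array on its median moved the share of higher calls in S5 from 46.1 to 32.2 percent. With it the median of all genes in S5 went from -0.02 to -0.11.

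The replicate numbers did not pair the arrays in a consistent way (2 of 15 pairs of groups had deviations correlated over 0.1, range -0.39 to 0.25). Negative correlations also occurred, as between untreated and treated KO arrays (-0.39) and between untreated WT and treated KO arrays (-0.243). With the number as a replicate block 32 genes were called in KO. With the numbers of the untreated KO arrays exchanged, a crossed block chosen after seeing the data, 19 were called in KO and 0 members. Under the block no member was called. The number of arrays, and the low mode in which all members lay in KO and S5, limit what small differences can show.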
